A study of Mus musculus with 16 samples.

Results

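*Il4*, *Il5*, *Il13*, *Rad50* and *Kif3a* lie side by side on mouse chromosome 11 in the type 2 helper T cell (Th2) cytokine locus, and their UMIs (unique molecular identifiers, each counting 1 captured RNA molecule) were followed through CD4+ T cells of helminth-infected mice. The 5 genes were taken by symbol, whatever their level, from 31053 genes in the first single-cell run and 32285 in the second. The mice were 4get/C57BL/6 animals, in which an IL-4eGFP reporter is read from the *Il4* gene itself. All of them had received 500 larvae of the rodent hookworm *Nippostrongylus brasiliensis* (Nb) 10 days before analysis, so no uninfected animal served as a control. In the first run, CD4+IL-4eGFP+ cells were sorted from the perfused lung and from the mesenteric lymph node (MLN) of 2 mice aged 13 weeks, which gave the samples lung 1, lung 2, MLN 1 and MLN 2. The lungs were digested with a dissociation kit and purified on Percoll, whereas the nodes were mashed without digestion. Organ and preparation can therefore not be told apart. In the second run, cells of the mediastinal lymph node (medLN) and the MLN of 2 other mice, aged 10 weeks, were marked with hashtag antibodies and sorted into a library of CD4+IL-4eGFP+ and a library of CD4+IL-4eGFP- cells, which gave 8 samples.

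IL-4, IL-5 and IL-13 are the signature cytokines of Th2 cells. IL-4 drives Th2 differentiation and the switch to IgE, IL-5 supports eosinophils, and IL-13 acts on epithelium and smooth muscle to raise mucus and contraction, a response by which worms are expelled. The 3 cytokine genes share enhancers, and a locus control region for them sits inside *Rad50*, a broadly expressed gene for a DNA break repair protein, while *Kif3a* encodes a motor subunit of kinesin II and flanks *Il4*.

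The first run held 4714 cells and the second 16748 cells after filtering, with 416 to 2462 cells and 2789854 to 14442133 UMIs per sample. Median depth was 4971 to 6910 UMIs per cell in the first run and 3165.5 to 3666.5 in the second. A *Cd3* gene or *Cd4* had a UMI in 99.2% to 100% of the cells of each sample. Levels are given as CPM, the UMIs of a gene when all UMIs of the sample are scaled to 1000000, in which 3 UMIs, the limit set by a count of 0, correspond to 0.208 to 1.08 CPM. Of the 70 barcodes with B cell genes and no *Cd3* gene (median 3266 UMIs), 0 had a UMI of *Il4*, *Il5* or *Il13*, which allows a share of up to 4.29% over all libraries. Only 1 of these barcodes lay in a lung library, so no limit of this kind can be given for the lung. Up to 36 cell barcodes were shared between any library pair that includes a first-run library, and 147 between both libraries of the second run.

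In the GRCm38 annotation the genes span 157.728 kb. In order of position, *Kif3a* lies at chr11:53567379-53601967 on the plus strand, *Il4* at chr11:53602982-53618669 on the minus strand, *Il13* at chr11:53631324-53634702 on the minus strand, *Rad50* at chr11:53649519-53707319 on the minus strand, and *Il5* at chr11:53720794-53725106 on the plus strand. The ends of *Kif3a* and *Il4* face each other at a distance of 1014 bp, whereas 12654 to 14816 bp separate the other neighbors. *Rad50* overlaps the opposite-strand gene *Gm22275*, and *Il5* overlaps the opposite-strand gene *Gm12214*. Whether the counting used strand is not given in the sources used here, so reads of such partners may be mixed.

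The promoter windows of 4 of the 5 genes are shown because the levels of these genes are compared throughout (RefSeq, GRCm38.p6, 250 bases before to 50 after the transcription start, 5′ to 3′ on the strand of the gene). For *Il4*, 2 start sites are listed, and the window of the upstream one is shown. The windows are chr11:53618616-53618915 (minus strand) for *Il4*, chr11:53634653-53634952 (minus strand) for *Il13*, chr11:53720544-53720843 (plus strand) for *Il5* and chr11:53567119-53567418 (plus strand) for *Kif3a*. Capitals mark matches to a GATA motif, searched on both strands as the letters GATA after an A or T and before an A or G.
Il4: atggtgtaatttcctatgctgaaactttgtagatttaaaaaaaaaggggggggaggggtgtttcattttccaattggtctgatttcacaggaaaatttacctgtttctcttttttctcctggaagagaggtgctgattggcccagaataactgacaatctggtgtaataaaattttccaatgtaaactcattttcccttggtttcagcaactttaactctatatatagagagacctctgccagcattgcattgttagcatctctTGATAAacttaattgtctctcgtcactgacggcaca
Il13: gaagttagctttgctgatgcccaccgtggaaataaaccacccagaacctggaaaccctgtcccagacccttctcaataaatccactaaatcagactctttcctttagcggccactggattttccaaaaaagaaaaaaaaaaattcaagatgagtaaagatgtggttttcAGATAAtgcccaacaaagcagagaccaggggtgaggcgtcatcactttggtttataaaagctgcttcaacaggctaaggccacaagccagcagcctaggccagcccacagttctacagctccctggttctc
Il5: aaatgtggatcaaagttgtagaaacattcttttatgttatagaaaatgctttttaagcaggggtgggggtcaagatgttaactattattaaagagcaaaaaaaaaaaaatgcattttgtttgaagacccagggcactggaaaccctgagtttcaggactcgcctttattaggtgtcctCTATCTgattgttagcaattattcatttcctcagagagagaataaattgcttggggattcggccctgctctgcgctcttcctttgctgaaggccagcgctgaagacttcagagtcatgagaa
Kif3a: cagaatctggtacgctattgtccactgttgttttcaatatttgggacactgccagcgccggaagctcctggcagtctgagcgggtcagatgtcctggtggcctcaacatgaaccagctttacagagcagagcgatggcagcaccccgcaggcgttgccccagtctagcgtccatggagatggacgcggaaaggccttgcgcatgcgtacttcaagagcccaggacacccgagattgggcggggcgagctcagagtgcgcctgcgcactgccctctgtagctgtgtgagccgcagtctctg
A GATA match was present at base -81 of *Il13*, at base -72 of *Il5* on the opposite strand and at base 15 of *Il4*, counted from the transcription start, and none was in the *Kif3a* window. The window of the downstream *Il4* start, chr11:53617289-53617588 (minus strand), is not shown and held a GATA match at base -80, 1 NFAT core and none of the other motifs searched. GATA matches occurred in 29.8% of all 32851 promoter windows. The core letters of the NFAT motif, GGAAA, occurred 5 times in *Il4*, 4 times in *Il13*, 2 times in *Il5* and 1 time in *Kif3a*, and in 61.3% of all windows. The STAT6 motif, TTC and GAA with any 4 bases between them, occurred once on each strand at the same palindromic site of *Il4* only among the windows shown, against 6.95% of all windows, and a TATA box (TATAAA) in *Il13* only, on both strands in overlap, against 13.6%. The AP-1 motif (TGANTCA), present in 7.81% of all windows, occurred in none of the 4.

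Among IL-4eGFP+ cells of the first run, *Il13* and *Rad50* passed the test and were higher in the lung than in the MLN. *Il5* was higher in the lung by its counts, whereas *Il4* and *Kif3a* did not pass the test. *Il13* reached 322 CPM in lung 1 and 128 in lung 2, against 9.35 in MLN 1 and 51.0 in MLN 2, or 225 ± 137 against 30.2 ± 29.4 (mean ± SD, n = 2 each). Both lung samples lay above both MLN samples, although lung 2 and MLN 2 stood closer together than lung 1 and MLN 1. The log2 fold change was 3.29 (SE 0.66, edgeR adjusted p = 0.00503), and DESeq2 gave 3.07 with an adjusted p of 0.0583. Leaving out lung 1, lung 2, MLN 1 or MLN 2 gave 2.40, 3.90, 2.33 or 4.76, each past the threshold by edgeR, with the lone sample of an organ assumed to vary like those of the other. In MLN 2, a single cell held 130 of the 227 *Il13* UMIs (57.3%), and without that cell the level was 21.8 CPM. Without the highest cell of each sample, *Il13* was 41.0-fold higher in lung than in MLN for mouse 1 and 4.64-fold for mouse 2, against 34.4-fold and 2.50-fold with all cells.

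*Il5* was the member with the steepest organ difference. Its level was 89.5 CPM in lung 1 and 30.8 in lung 2, but 0.485 in MLN 1, where 7 UMIs in 3 of 2462 cells were found, and 0 in MLN 2. The lung and MLN samples were widely separated, with a log2 fold change of 7.54 (SE 0.72). With 7 and 0 UMIs in the MLN samples, *Il5* passed the filter on low counts through the lung samples alone. Its p-value between the organs is therefore not read. Without lung 1, lung 2 or MLN 2 the log2 fold change was 6.41, 8.07 or 7.14 by edgeR. Without MLN 1 only a sample with 0 UMIs was left for the MLN. The pooled ratio was 202-fold over 845 UMIs in lung and 7 in MLN. With each cell thinned to 2000 UMIs, 5.07% and 2.75% of lung cells were expected to show *Il5*, against 0.0575% of cells in MLN 1 and 0% in MLN 2, where 0 of 743 thinned cells allows a share of up to 0.404%. In lung 2, 44 of the 86 *Il5* UMIs (51.2%) came from 2 cells that also had a UMI of a basophil, mast cell or eosinophil gene. Of these UMIs, 29 came from a cell with 1 UMI of *Ccr3*, counted here as an eosinophil gene, and 16 UMIs of *Cd3* genes.

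*Rad50* was 72.1 and 83.5 CPM in lung 1 and lung 2 and 43.6 and 48.1 in MLN 1 and MLN 2. The groups did not overlap, at 77.8 ± 8.05 against 45.8 ± 3.18 CPM (mean ± SD, n = 2 each). In contrast to *Il5* and *Il13*, the replicates of each organ were close. The log2 fold change was 0.90 (SE 0.12, edgeR adjusted p = 4.19e-04). By CPM, which lack the TMM scaling between samples used in the fit, *Rad50* was 1.66-fold higher for mouse 1 and 1.74-fold for mouse 2. At 2000 UMIs per cell, *Rad50* was expected in 12.4% and 13.8% of lung cells and in 7.79% and 8.34% of MLN cells, so the difference was also present at equal depth.

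For *Il4*, levels were 447 and 388 CPM in lung 1 and lung 2 and 397 and 318 in MLN 1 and MLN 2, and the groups overlapped. The log2 fold change of 0.36 (SE 0.16) did not pass the test (edgeR adjusted p = 0.110). With mouse as a replicate block, the fold change was the same and passed (edgeR adjusted p = 0.00882). By CPM, without the TMM scaling of the fit, *Il4* was 1.13-fold and 1.22-fold higher in the lung of mouse 1 and mouse 2 (log2 0.17 and 0.29). It also passed without lung 2, at 0.53 (edgeR adjusted p = 0.0124), and with all barcodes used, whether or not they had TCR contigs, at 0.53 (edgeR adjusted p = 0.0348). At 2000 UMIs per cell, *Il4* was expected in 37.0% and 41.3% of lung cells and in 45.2% and 39.5% of MLN cells, an order that does not follow the CPM values.

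*Kif3a* was 24.7 and 19.0 CPM in lung 1 and lung 2 and 17.0 and 18.9 in MLN 1 and MLN 2, so that lung 2 and MLN 2 were nearly equal. Its log2 fold change was 0.50 (SE 0.19, edgeR adjusted p = 0.0736), and with mouse as a replicate block it passed (edgeR adjusted p = 0.0309), as it did with no filter on low counts (0.47, edgeR adjusted p = 0.0326). Without lung 2 it was 0.69 (edgeR adjusted p = 0.00502), and without lung 1 it was 0.16 (edgeR adjusted p = 0.646). *Il13* and *Rad50* thus passed the test and were higher in lung, with the p-value of *Il5* not read. Of all 10588 genes tested, 31.0% passed, 17.0% higher and 14.0% lower in lung. The basophil and mast cell list moved with organ as well, with 6 and 5 of its 6 genes detected in lung 1 and lung 2 and 1 in each MLN sample, summing to 6.08 to 8.93 CPM in lung and 0.138 to 0.447 in MLN (all but *Cpa3*, a mast cell protease gene, were at 0 in MLN). Cells with a gene of that list or of the eosinophil list held 0.879% and 2.81% of the lung *Il13* UMIs. The p-values measure the spread between samples of 2 mice only.

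**Figure D1:**
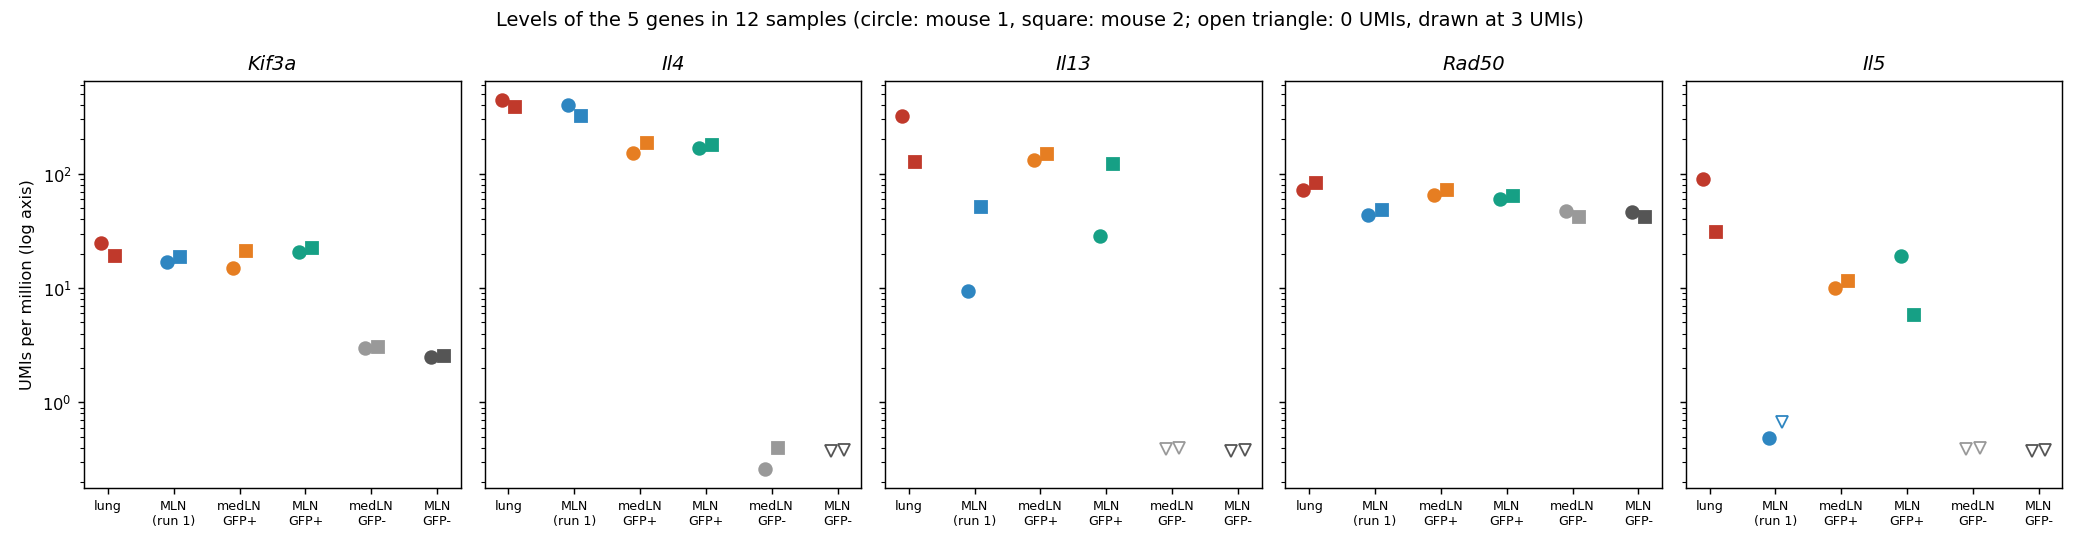
Levels of the 5 genes (CPM, log axis) in each of the 12 samples by group, with circles for mouse 1, squares for mouse 2 (other animals in the second run) and open triangles for samples with 0 UMIs, drawn at the level of 3 UMIs. *Il5* and *Il13* were separated between lung and MLN of the first run, and all IL-4eGFP- samples had 0 UMIs of both.

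In the second run, the IL-4eGFP gate was read from the *Il4* gene, so the *Il4* difference between the gates checks the sort and is no result. *Il4* was 153 and 188 CPM in IL-4eGFP+ cells of medLN 1 and medLN 2 and 169 and 180 in those of MLN 1 and MLN 2. In IL-4eGFP- cells, 2 UMIs were found in medLN 1, 3 in medLN 2 and none in both MLN samples, each UMI in a different cell. The pooled ratio of the gates was 1075. An *Il4* UMI was seen in 36.2% to 42.9% of the IL-4eGFP+ node cells, or in 23.4% to 26.0% at 2000 UMIs per cell, and most cells of the gate had no *Il4* UMI at this depth.

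No UMI of *Il13* or *Il5* was found in the IL-4eGFP- cells. *Il13* was 133 and 149 CPM in IL-4eGFP+ cells of medLN 1 and medLN 2, and 28.7 and 122 in those of MLN 1 and MLN 2, over 4227 UMIs, against 0 UMIs in 4258 medLN and 4416 MLN IL-4eGFP- cells. This made *Il13* at least 1134-fold higher in the gate when 3 UMIs over the whole IL-4eGFP- group are taken as the limit. *Il5* was 9.93, 11.4, 19.1 and 5.76 CPM in the same 4 samples, 438 UMIs in all, at least 117-fold above that limit. With 0 UMIs in every IL-4eGFP- sample, both genes passed the filter on low counts through the IL-4eGFP+ samples alone. Their p-values between the gates are therefore not read.

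*Kif3a*, the neighbor of *Il4*, followed the gate. It was 15.0 and 21.3 CPM in IL-4eGFP+ cells of medLN 1 and medLN 2, 20.5 and 22.5 in those of MLN 1 and MLN 2, and 2.98, 3.06, 2.49 and 2.55 in the IL-4eGFP- cells in the same order. All 4 IL-4eGFP+ samples lay above all 4 IL-4eGFP- samples, at 7.19-fold for the pooled counts, and the 4 IL-4eGFP- values were close together. The log2 fold change was 2.64 (SE 0.16, edgeR adjusted p = 3.37e-08), with 2.41 within medLN and 2.88 within MLN. At 2000 UMIs per cell, *Kif3a* was expected in 2.01% to 3.83% of IL-4eGFP+ and in 0.502% to 0.530% of IL-4eGFP- cells. None of 5 IL-4eGFP- cells with an *Il4* UMI had a *Kif3a* UMI. With *Kif3a* found in 0.831% to 1.05% of all IL-4eGFP- cells, 5 cells are too few to read this count.

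*Rad50* showed a smaller gate difference. It was 64.7, 72.5, 60.5 and 64.2 CPM in IL-4eGFP+ cells of medLN 1, medLN 2, MLN 1 and MLN 2, and 47.0, 42.2, 46.2 and 42.0 in the IL-4eGFP- cells. The groups did not overlap, with a log2 fold change of 0.36 (SE 0.064, edgeR adjusted p = 3.40e-04). *Il4*, which the gate reads, and *Il5* and *Il13*, which had no UMI outside it, are not counted here. *Kif3a* and *Rad50* passed the test and were higher in the gate. Of all 11279 genes tested, 62.8% passed, 31.3% higher and 31.5% lower. The 4 samples of each gate came from the same 2 mice, and the fit held no term for mouse. Each gate was 1 library, so gate and library cannot be told apart. The gates also differed in cell makeup, with *Foxp3*, which marks regulatory T cells, in 1.02% to 3.24% of IL-4eGFP+ and 8.40% to 12.3% of IL-4eGFP- cells. The part of this in the *Kif3a* and *Rad50* differences was not tested.

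Within the IL-4eGFP+ gate, *Kif3a* was further split by the presence of an *Il4* UMI. In cells with an *Il4* UMI, *Kif3a* was 20.7 and 30.2 CPM in medLN 1 and medLN 2 and 28.6 and 27.3 in MLN 1 and MLN 2. In IL-4eGFP+ cells without one it was 9.55, 11.8, 12.3 and 15.8, and in IL-4eGFP- cells without one 2.98, 3.06, 2.48 and 2.54. By CPM the 3 classes did not overlap, but the cells were not at equal depth. The share of all genes that separate in this way was not counted. In the first run the order was the same, with 27.5 against 16.7 CPM in lung 1, 20.5 against 13.8 in lung 2, 19.9 against 7.36 in MLN 1 and 22.7 against 8.71 in MLN 2 for cells with and without an *Il4* UMI. *Rad50* differed less between these classes, at 65.3 to 75.7, 55.1 to 68.6 and 41.9 to 46.6 CPM in the second run, with overlap between the first pair. Cells with an *Il4* UMI were also deeper, with medians of 3782 to 4732 against 2909 to 3265 UMIs in the IL-4eGFP+ node samples. Between the gates, 62.8% of all 11279 genes tested passed.

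**Figure D2:**
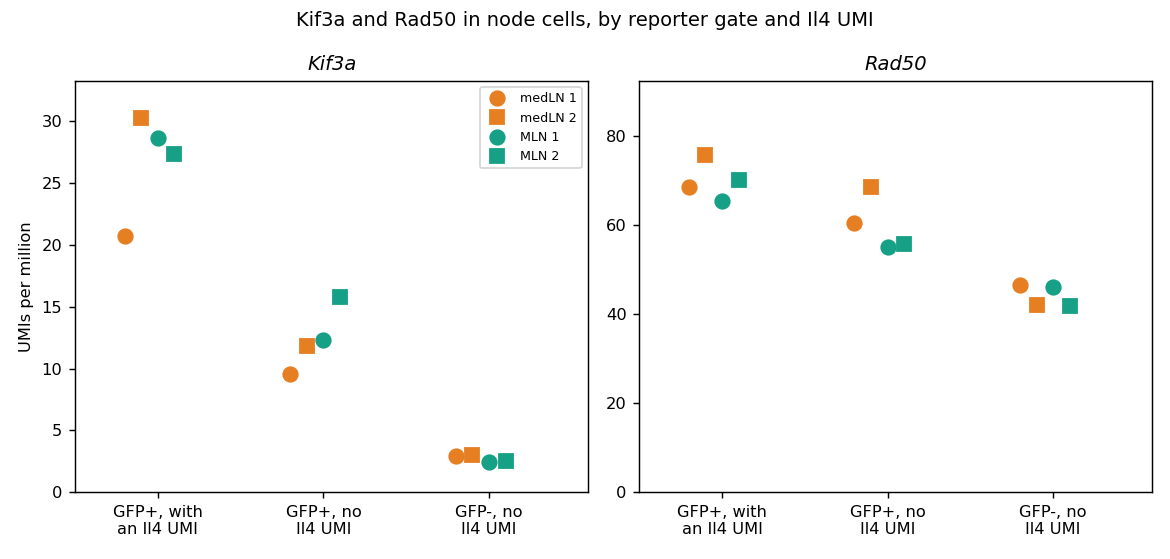
Levels of *Kif3a* and *Rad50* (CPM, axes from 0) in node cells of the second run by reporter gate and presence of an *Il4* UMI, with one point per organ and mouse. *Kif3a* lay between 20.7 and 30.2 with an *Il4* UMI, between 9.55 and 15.8 without one and between 2.48 and 3.06 outside the gate, and the classes of *Rad50* lay closer together.

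Between the nodes, no member passed the test in IL-4eGFP+ cells, where 1.28% of all 11263 genes passed. For *Il4*, the log2 fold change of medLN over MLN was -0.04 with a 95% interval of -0.25 to 0.17, and for *Rad50* it was 0.13 (-0.06 to 0.31). *Kif3a* gave -0.26 (-0.62 to 0.10, edgeR adjusted p = 0.576) and *Il5* -0.20 (-1.19 to 0.79, edgeR adjusted p = 0.913), so that the interval of *Il5* includes large differences in both directions. *Il13* was 4.64-fold higher in medLN of mouse 1 and 1.22-fold in that of mouse 2, with a log2 fold change of 0.87 (-0.24 to 1.99, edgeR adjusted p = 0.533). Without the IL-4eGFP+ MLN sample of mouse 2, the *Il13* value was 2.30 (edgeR adjusted p = 8.16e-05), and without that of mouse 1 it was 0.18 (edgeR adjusted p = 0.441). Each of these sets medLN against 1 MLN sample, with the spread taken from medLN alone.

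The MLN sample of mouse 1 owed most of its *Il5* and *Il13* to 1 cell. This IL-4eGFP+ cell held 168 of 175 *Il5* UMIs (96%) and 208 of 263 *Il13* UMIs (79.1%), together with 8 UMIs of *Mcpt8*, a basophil protease gene, and 59 UMIs of *Cd3* genes. Without it, *Il5* was 0.765 CPM and *Il13* 6.01 CPM in that sample. Without the highest cell of each sample, *Il13* was 17.6-fold and 1.41-fold higher in medLN than in MLN of mouse 1 and mouse 2. Cells with a basophil, mast cell or eosinophil gene held 24.0% and 30.3% of the *Il13* UMIs in IL-4eGFP+ medLN 1 and medLN 2 and 80.2% and 6.64% in MLN 1 and MLN 2. *Ccr3* had a UMI in 9 of the 18 such cells of medLN 1 and in 9 of the 12 of medLN 2. In medLN 2, the cell with the most *Il13* held 343 UMIs of it and 47 UMIs of *Cd3* genes. Its only gene of these lists was *Ccr3*, with 8 UMIs. The part of cells with such a gene in the medLN values was not tested.

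In IL-4eGFP- cells, *Rad50* (-0.04, 95% interval -0.23 to 0.15) and *Kif3a* (0.21, -0.48 to 0.90) did not pass the test between medLN and MLN, where 0.178% of all 10684 genes passed. *Il4*, with 5 UMIs in 4258 medLN cells and 0 in 4416 MLN cells, was below the filter on low counts, and *Il5* and *Il13* had 0 UMIs. The gate difference of *Rad50* and *Kif3a* was also compared between the nodes by an interaction term, which was not read for the cytokine genes, with 0 UMIs in IL-4eGFP- MLN cells, and gave 0.17 (SE 0.12, edgeR adjusted p = 0.856) and -0.46 (SE 0.33, edgeR adjusted p = 0.863), with 0.156% of all 11535 genes passing.

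The cytokine genes were then compared within single cells. Counts of cells with both genes were divided by the product of both shares in the same sample, with each cell thinned to 2000 UMIs, so that deep cells do not raise the ratio by depth alone. For *Il5* and *Il13*, this observed over expected ratio was 2.82 in lung 1 and 3.56 in lung 2. In the nodes it was 36.5 in IL-4eGFP+ medLN 1, 37.7 in medLN 2 and 31.1 in MLN 2. *Il5* was thus found mainly in cells that had *Il13*, as 51 of 63 *Il5*+ IL-4eGFP+ node cells (81.0%) and 70 of 103 and 15 of 20 *Il5*+ cells of lung 1 and lung 2 had an *Il13* UMI. Conversely, and also without thinning, *Il5* was seen in 22.0% of *Il13*+ and 4.32% of *Il13*- cells of lung 1, and in 18.1% and 1.50% of lung 2. At 2000 UMIs per cell these shares were 14.3% and 2.99% in lung 1, and 9.80% and 1.90% in lung 2. The highest ratio that can be reached falls as the share of cells with the more frequent gene grows, and *Il13* was expected in 18.4% and 10.9% of thinned cells of lung 1 and lung 2 but in 0.627% to 2.40% of those of the IL-4eGFP+ node samples.

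The ratio of *Il4* with *Il13* was 1.21 to 1.90 in the 8 samples of IL-4eGFP+ cells. That of *Il4* with *Il5* was 0.986 to 2.19 in the 5 samples with at least 10 *Il5*+ cells. *Il4* was expected in 37.0% to 45.2% of thinned cells of the first run and in 23.4% to 26.0% of those of the IL-4eGFP+ node samples. The highest ratio that *Il4* can reach is thus lower than that of *Il5* with *Il13*, and these pairs are not ranked by it. In lung 1, 75.8% of *Il13*+ cells and 63.2% of *Il13*- cells had an *Il4* UMI, and in lung 2 these were 85.5% and 65.8%. An *Il13* UMI without one of *Il4* or *Il5* was found in 58 of 1082 cells of lung 1 (5.36%) and 10 of 416 of lung 2 (2.40%), while all 3 cytokine genes were found in 51 (4.71%) and 13 (3.13%). *Il4* with *Kif3a* gave 1.15 to 1.56 and was above 1 in all 8 samples of IL-4eGFP+ cells, whereas *Il4* with *Rad50* gave 0.935 to 1.04. These ratios are descriptions over cells of 1 library each and carry no test.

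**Figure D3:**
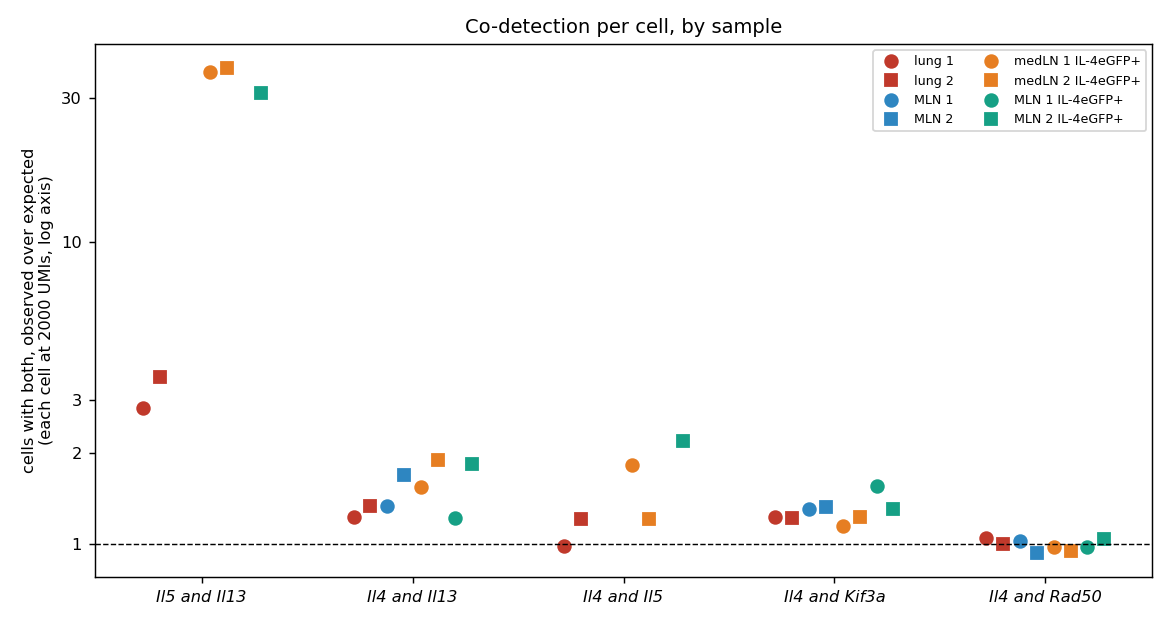
Observed over expected count of cells with both genes (log axis, each cell at 2000 UMIs, dashed line at 1) for 5 gene pairs, with one point for each IL-4eGFP+ sample in which at least 10 cells had each gene. *Il5* with *Il13* lay between 2.82 and 37.7, while *Il4* with *Rad50* lay near 1. The highest ratio that can be reached differs between pairs and samples.

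The UMIs of the cytokine genes were concentrated in few cells. The tenth of *Il13*+ cells with the most *Il13* held 51.1% to 83.3% of its UMIs in the 8 IL-4eGFP+ samples, with a maximum of 450 UMIs in 1 cell of IL-4eGFP+ MLN 2. The median *Il13*+ cell had 2 to 5 UMIs. For *Il4* the same share was 32.3% to 52.7%, with a maximum of 193 UMIs in 1 cell of MLN 1. The cell with the most *Il4* of a sample was the cell with the most *Il13* in MLN 2 alone, where it held 37 and 130 UMIs. For *Rad50* and *Kif3a*, whose UMIs were spread over cells, the shares were 21.0% to 29.0% and 18.9% to 27.9%, with at most 9 and 6 UMIs in any cell.

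**Figure D4:**
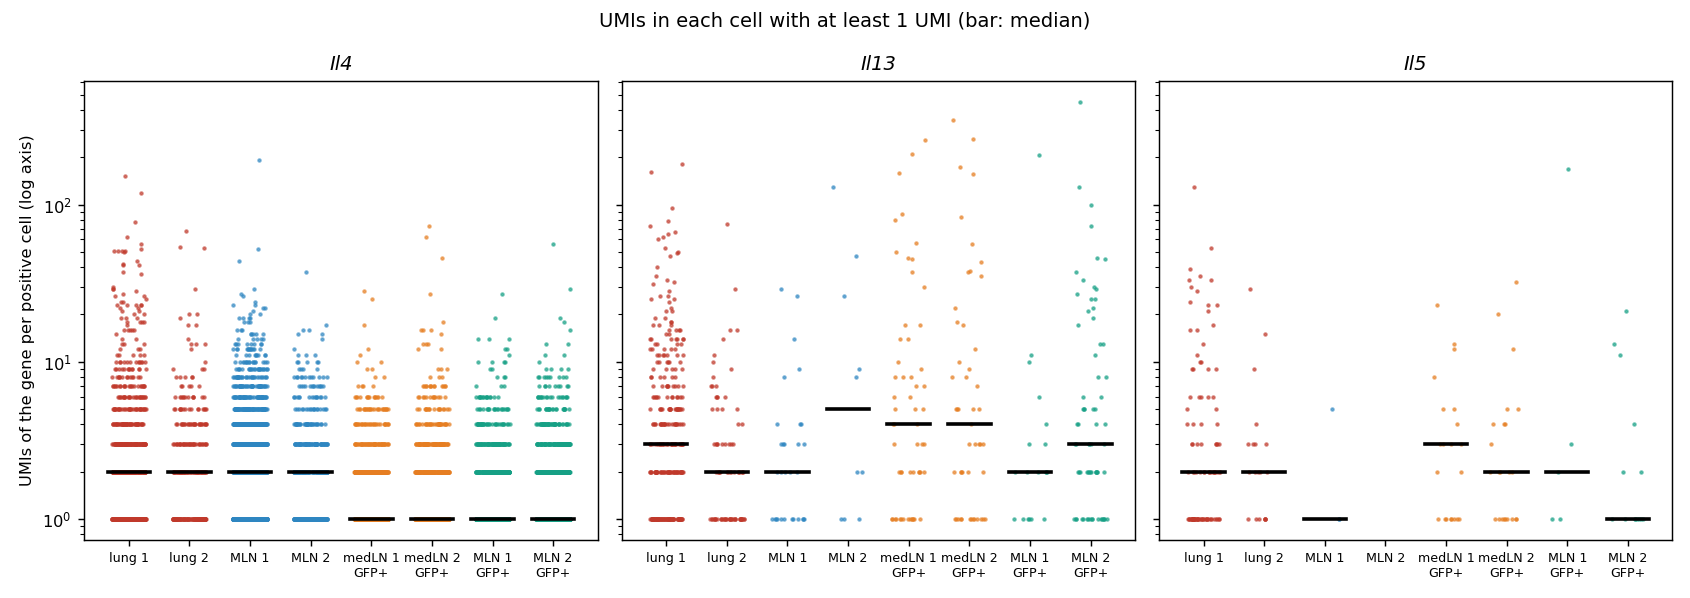
UMIs of *Il4*, *Il13* and *Il5* in each cell with at least 1 UMI (log axis, one dot per cell, bar at the median) for the 8 samples of IL-4eGFP+ cells. The medians lay at 1 to 5 UMIs, and single cells of *Il13* reached 450.

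The balance of the cytokines differed between samples. Per UMI of *Il4*, 0.719 and 0.329 UMIs of *Il13* were counted in lung 1 and lung 2 and 0.0235 and 0.160 in MLN 1 and MLN 2. In the second run this ratio was 0.868 and 0.793 in IL-4eGFP+ medLN 1 and medLN 2 and 0.169 and 0.681 in MLN 1 and MLN 2. Both lung samples were above both MLN samples of the first run, and both medLN samples above both MLN samples of the second. The ratio of *Il5* to *Il4* UMIs was 0.2 and 0.0795 in the lung samples and 0.00122 and 0 in the MLN samples of the first run, and 0.0648, 0.0608, 0.113 and 0.0321 in IL-4eGFP+ medLN 1, medLN 2, MLN 1 and MLN 2. The nodes overlapped in this ratio through 1 cell of MLN 1. With the cell highest for *Il5* left out of each sample, it was 0.0490, 0.0428, 0.00451 and 0.0211 in the same order. Leaving out these cells was chosen after seeing the data, and 7 *Il5* UMIs remained in IL-4eGFP+ MLN 1. Neither *Il5* nor *Il13* passed the test between the nodes (edgeR adjusted p = 0.913 and 0.533). How many ratios of other genes order the samples in this way was not counted. The order of the *Il13* ratios was the same without the cell highest for *Il13*, at 0.675 and 0.267 in lung 1 and lung 2, 0.0185 and 0.0703 in MLN 1 and MLN 2, and 0.692, 0.600, 0.0355 and 0.446 in the second run.

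T cell receptor (TCR) sequences allowed cells of the first run to be placed in clones, cells of a mouse and organ with the same TCR chains. An *Il13* UMI was found in 35.2% of 327 cells of clones with 2 or more cells in lung 1 and in 26.9% of 755 cells with a TCR of their own. In lung 2 these shares were 21.1% of 71 and 19.7% of 345, and in MLN 1 2.42% of 660 and 0.777% of 1802. In MLN 2 they were 2.56% of 78, from 2 cells, and 1.18% of 676. The direction was the same in 4 of 4 samples, and the exact 95% intervals, which cover counting error only, overlapped in lung 1 (30.0% to 40.6% against 23.8% to 30.2%), lung 2 and MLN 2 but not in MLN 1 (1.39% to 3.91% against 0.425% to 1.30%). *Il5* was found in 12.8% and 8.08% of the same classes in lung 1 and in 8.45% and 4.06% in lung 2, with overlapping intervals. *Il4* showed no common direction, at 66.4% and 67.2% in lung 1, 71.8% and 69.3% in lung 2, 75.3% and 69.3% in MLN 1 and 78.2% and 63.9% in MLN 2. In MLN 1 the intervals of *Il4* did not overlap either (71.8% to 78.5% against 67.1% to 71.4%). The shares by clone are without thinning, and depth was not compared between the classes. Of 130 such clones in lung 1, 74 had a cell with *Il13* and 20 had *Il13* in each of their cells.

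The genes around the locus did not move as a block. Of 19 flanking genes listed, 10 could be tested between lung and MLN, of which 4 rose and none fell in lung, where 17.0% of all genes were higher and 14.0% lower, with a median log2 fold change of 0.94 against -0.01 for all genes. *Gm12216*, a gene between the locus and *Pdlim4* that is not on the list, was lower in lung (-1.10, edgeR adjusted p = 0.00571). *Aff4* (2.14), a scaffold of transcription elongation complexes, and *Zcchc10* (2.11) had the largest differences, and *Sept8* (1.53), a septin gene and the nearest tested gene on the far side of *Kif3a* from *Il4*, also rose, as did *Hspa4* (0.82), a heat shock protein gene. Between the gates, 3 of 8 rose and 3 fell, where 31.3% of all genes were higher and 31.5% lower, with a median of 0.03. Here *Sept8* was higher in IL-4eGFP+ cells by 2.83 (SE 0.24) and *Zcchc10* by 0.69, whereas *Pdlim4* (-2.74) and *Slc22a5* (-1.19) were lower. *Sept8* was below the filter on low counts in IL-4eGFP- cells alone and passed it here through the IL-4eGFP+ samples. Its p-value between the gates is therefore not read, although it is counted among the 3 that rose.

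**Figure D5:**
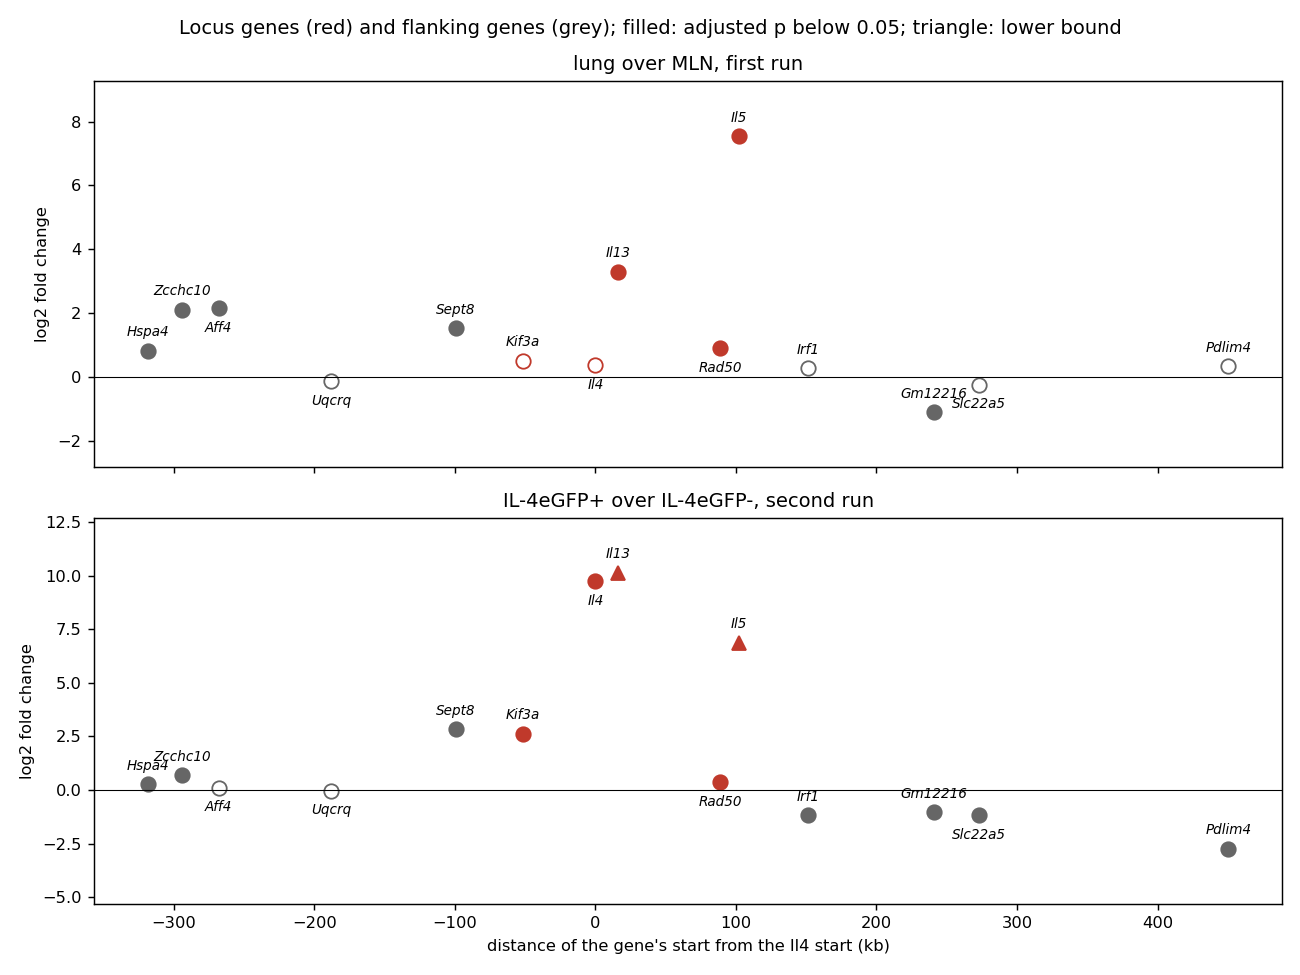
Log2 fold change of the 5 locus genes (red) and of tested protein-coding genes within 500 kb (grey) against the distance of their start from that of *Il4*, for lung over MLN (top) and IL-4eGFP+ over IL-4eGFP- node cells (bottom), with filled points for an edgeR adjusted p below 0.05 and triangles for lower bounds. *Kif3a* and *Sept8*, on the same side of *Il4*, stood at 2.64 and 2.83 between the gates, while *Pdlim4* stood at -2.74. The fill of *Il5* in both panels, and of *Il4*, *Il13* and *Sept8* at the bottom, is not read.

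Transcription factors that act on the locus were counted in lists of activators and repressors. Between lung and MLN, 4 of 17 activators tested rose and 1 fell in lung, against 17.0% and 14.0% of all genes, with *Junb* (4.13), an AP-1 subunit, and *Rbpj* (2.57), the Notch partner, as the largest, and *Stat5b* (-0.47) lower. *Gata3*, the lineage factor of Th2 cells, rose by 2.03. Only the lung was digested, and the part of digestion in these differences, that of *Junb* among them, was not tested. Of 8 repressors, 4 rose and 1 fell, among them *Tbx21* (2.20), the Th1 factor that opposes *Gata3*, and *Runx3* (1.13), with *Bcl6* (-1.24), the follicular helper factor, lower. Between the gates, 9 of 17 activators rose and 5 fell, against 31.3% and 31.5% of all genes, with *Maf* (3.05), which binds the *Il4* promoter, and *Gata3* (2.03) highest and *Stat6* (-0.43) and *Satb1* (-0.41) lowest. Of 9 repressors, 5 rose and 2 fell, with *Ezh2* (1.47) and *Bcl6* (1.35) highest and *Sox4* (-3.54) and *Mbd2* (-0.19) lowest. In IL-4eGFP+ cells of the nodes, *Irf4* (0.81) was higher in medLN, as the only activator to pass, and no repressor passed, where 1.28% of all genes passed.

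Receptors upstream of the locus were also counted. In lung, 7 of 10 rose and 1 fell, against 17.0% and 14.0% of all genes, led by *Il1rl1* (5.03), the receptor of IL-33, and *Il2ra* (2.79), with *Il17rb* (-0.71), the receptor of IL-25, lower. Between the gates, 6 of 10 rose and 4 fell, against 31.3% and 31.5% of all genes, with *Il17rb* (4.44) and *Il1rl1* (3.43) highest and *Il4ra* (-2.56), a subunit of the IL-4 and IL-13 receptors, and *Il7r* (-1.55) lowest. In medLN against MLN, *Il7r* (0.59) and *Icos* (0.29) passed. Of the 7 receptor genes for the 3 cytokines, 2 could be tested, *Il4ra* and *Il2rg*, and both were higher in lung (0.56 and 0.57) and lower in IL-4eGFP+ than in IL-4eGFP- cells (-2.56 and -0.18). In the comparison of the nodes in IL-4eGFP- cells, no gene of any list passed.

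Over the 12 samples, the gene most like each cytokine gene was sought among 9110 genes with a mean of 5 CPM or more, by Pearson's r of log2(CPM + 1). The nearest to *Il4* were *Gng2* (0.996), *Maf* (0.996), *9530068E07Rik* (0.994), *Prr13* (0.994) and *Plekhg3* (0.993), and *Kif3a* ranked 27 at 0.985. For *Il5* they were *D8Ertd738e* (0.976), *Plk3* (0.974), *Acot9* (0.969), *Sh3bgrl3* (0.963) and *Anxa1* (0.960), with *Rad50* at rank 60 (0.915). For *Il13* they were *Rtn3* (0.978), *Lcp2* (0.978), *Hif1a* (0.973), *Nqo2* (0.973) and *Cpt1a* (0.972), with *Kif3a* at rank 69 (0.940). The members not yet named ranked lower. For *Il4* they were *Il13* at rank 460 (0.915), *Il5* at 2229 (0.678) and *Rad50* at 2254 (0.675). For *Il5* they were *Il13* at rank 320 (0.819), *Kif3a* at 807 (0.725) and *Il4* at 1066 (0.678). For *Il13* they were *Il4* at rank 203 (0.915), *Rad50* at 594 (0.858) and *Il5* at 905 (0.819). The 12 points share mice, runs and gates, so these values are descriptions.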

How the data were processed

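CD4+ T cells of IL-4eGFP reporter mice were measured by 5′ single-cell RNA sequencing. For lung and MLN, the authors deposited UMI counts per gene and barcode and lists of TCR contigs, made with Cell Ranger 2.1.1 and 3.0.1 after alignment to mm10. For medLN and MLN, the authors deposited UMI counts per gene and hashtag, aggregated over both gates with Cell Ranger 6.1.2. For that run, neither the build nor any thinning of reads between the gates is stated in the labels or methods. The barcode suffix gave the gate of a cell.

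The filters of the study were applied: more than 500 UMIs and 500 genes, mitochondrial UMIs below 7%, novelty above 0.8 and, in the first run, TCR expression, taken here as a productive TRA and a productive TRB contig. Of 6319 and 19683 barcodes, 4714 and 16748 were used. Hashtags were called with HTODemux of Seurat 5.3.0 (quantile 0.99) for each gate. Scrublet (scanpy 1.11.5) called 17 of 5938 first-run barcodes (0.286%) and 3 in the second run, which is too few to trust, so an alternative without doublets also dropped barcodes with surplus productive TCR contigs, 301 in all. TCR genes were left out.

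UMI counts were summed per sample, since cells are not replicates, and tested with edgeR 4.0.16 (R 4.3.3; filterByExpr, TMM, quasi-likelihood test, Benjamini-Hochberg over all genes tested, threshold 0.05). The gate fit held the node as a term. Samples with the same mouse number came from the same animal, and the correlations of their deviations from group means were 0.038 for lung and MLN, 0.235 for the IL-4eGFP+ and 0.117 for the IL-4eGFP- nodes, and 0.036 to 0.157 in the gate fit. Alternatives were mouse as a replicate block, DESeq2 1.42.0, its size factors in edgeR, no filter on low counts, each sample left out, other hashtag calls, no TCR criterion and doublets removed. A fit of the gate within each node, and values without the highest cell of each sample, were chosen after seeing the data. The test scripts were first tested on simulated data. Shares of cells carry exact Clopper-Pearson 95% intervals (scipy 1.17.1), a count of 0 the limit of 3 counts, and shares at 2000 UMIs are exact hypergeometric expectations with shallower cells left out.

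The members and gene lists were chosen with earlier results of these data known. The 5 members are named in every comparison that could be fitted for them, and of each list the 2 genes with the largest change in each direction past the threshold. *Gata3*, *Sept8*, *Hspa4* and *Gm12216* for lung and MLN were named outside this rule after their values were seen.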

Additional observations from a re-analysis of the deposited data

Results flagged for a closer look

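Barcodes of the lung that lacked a productive TRA and TRB contig were left out of all comparisons, yet they carried cytokine UMIs. In lung 1, 53.0% of 523 such barcodes had an *Il4* UMI, 7.27% had *Il5* and 27.3% had *Il13*. In lung 2, 56.25% of 208 had *Il4*, 3.37% had *Il5* and 18.75% had *Il13*. The 0.574% and 1.44% that a count of 0 allows in so many barcodes are no background level for these shares. No background level could be given for the lung, where 1 barcode had B cell genes and no *Cd3* gene. A *Cd3* gene was found in 85.5% and 83.2% of these barcodes, and a basophil or mast cell gene in 53 and 33 of them, against 4 and 3 of the 1082 and 416 cells that were kept. Of the barcodes with *Il13*, 20 and 9 had no *Cd3* UMI, while all barcodes with *Il5* had one. In lung 2, 1 barcode held 616 of 622 *Il5* UMIs and 639 of 745 *Il13* UMIs.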

How the results depend on the processing

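Over the alternatives, 201 fold changes of single members kept their direction and side of the threshold, 7 passed it, 1 lost it (*Il13* by DESeq2) and 5 turned, all of them values that had not passed. The 201 include fits of *Il4*, *Il5* and *Il13* between the gates and of *Il5* between lung and MLN. Since these are not read as tests, that count is raised by values that carry no result. Leaving out a sample moved *Il5* of medLN over MLN (IL-4eGFP+) between -0.84 and 0.87, *Il4* between -0.19 and 0.089, and *Rad50* of the IL-4eGFP- nodes between -0.12 and 0.034. Genes called for lung and MLN were 3284 by edgeR, 1833 by DESeq2, 3886 with mouse as a replicate block and 1907 to 3678 with a sample left out. For the IL-4eGFP+ nodes they were 144, 47 with no filter on low counts, 187 with the replicate block and 13 to 191 with a sample left out. For the IL-4eGFP- nodes they were 19, 2 with no filter, 65 with the replicate block and 98 to 194. For the gates they were 7086, 7331 with the replicate block, 6642 to 6880 with a sample left out, and 5378 within medLN and 5628 within MLN. For the interaction they were 18, 37 by DESeq2, 68 with no filter, 44 with the replicate block and 4 to 13. The cause of these shifts was not tested. The replicate block changed no call of a member other than *Il4* and *Kif3a* between lung and MLN. With 2 mice per group and few UMIs of *Il5* in the nodes, only large differences could be seen for it. *Il5* with *Il13* stayed above 1 in every sample with at least 20 cells of each gene, at 2.26 to 44.2 over 4 alternatives.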
